A study of Homo sapiens with 18 samples.

Results

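Transforming growth factor beta (TGF-beta) signalling was followed through 10 genes: the ligand genes TGFB1, TGFB2 and INHBA, the receptors TGFBR1 and TGFBR2, the signal transducer SMAD3, the inhibitory SMAD7, the modulators PMEPA1 and SKIL, and the matrix target TGFBI. They were chosen by gene symbol from the 23710 genes of each deposited count table, with earlier results of these data known. All 10 passed the filter on low counts in each of the 3 cell lines. The study altered EHF, an ETS-family transcription factor of epithelial cells, in established lines of human head and neck squamous cell carcinoma (HNSCC) and sequenced polyA-enriched RNA in 16 libraries. A253 gave 3 EHF-overexpressing libraries from cells in doxycycline medium and 3 control libraries from cells in regular medium. SCC25 gave 2 and 2 libraries of the same kinds. CAL27, in regular medium throughout, gave 2 knockdown libraries with the hairpin headed sh 64, 2 with the hairpin headed sh 65, and 2 control libraries headed sh Control. Doxycycline, the inducer of EHF in these cells, was given to the overexpressing cells alone, so that the drug and the factor cannot be told apart. The labels do not state whether replicates are separate cultures, so p-values measure the spread between these libraries, which may be technical. They also do not tie sh 64 and sh 65 to the names knockdown 1 and knockdown 2, and the deposited count and TPM tables name the hairpins the other way round. The replicate numbers of the libraries headed sh 64 in the count table are also exchanged in the TPM table. The names and numbers of the count table are used.

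TGF-beta ligands are secreted in a latent form and, once released, bind the type II receptor TGFBR2, which recruits and phosphorylates the type I receptor TGFBR1. TGFBR1 phosphorylates SMAD2 and SMAD3, which enter the nucleus with SMAD4 and act on target genes. SMAD7, PMEPA1 and SKIL are induced by the pathway and dampen it in turn, SMAD7 at the receptor, PMEPA1 by holding back receptor-regulated SMADs, and SKIL (SnoN) as a nuclear co-repressor of SMAD complexes. INHBA encodes the subunit of activin A, a related ligand that uses other receptors and the same SMAD2 and SMAD3. In squamous epithelium the pathway is known to restrain proliferation, and in carcinoma to accompany matrix production and invasion.

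Library totals ran from 7068155 to 19962159 counts. EHF followed its labels: it averaged 703 CPM in A253 overexpression and 86.4 CPM in A253 control libraries, 876 CPM in SCC25 overexpression and 440 CPM in SCC25 control libraries, and 511 CPM with sh 64, 457 CPM with sh 65 and 977 CPM in CAL27 controls. CPM are counts scaled to a common library size, with TMM factors within a line. EHF differed between sh 65 and sh 64 by a log2 difference of -0.16, which did not pass the threshold (edgeR quasi-likelihood test, adjusted p = 0.23). The 95% interval of this difference, -0.31 to -0.01, lay below 0. Both sh 65 libraries (444 and 469 CPM) lay below both sh 64 libraries (497 and 526 CPM). Equal knockdown by the hairpins was therefore not shown. All 10 squamous markers were detected in every line. Their summed level was 12900 to 13800 CPM in A253 overexpression and 14800 to 15800 CPM in A253 control libraries, 18900 to 19500 and 18100 to 18900 CPM in SCC25 overexpression and control libraries, and 11600 to 13700 CPM in CAL27 knockdown and 8470 to 8860 CPM in CAL27 control libraries. The 10 fibroblast markers summed to 9.04 to 10.9 CPM in A253 overexpression and 12.1 to 13.7 CPM in A253 control libraries, and to 8.83 to 16.8 CPM in CAL27 knockdown and 8.53 to 9.29 CPM in CAL27 control libraries. In SCC25 they summed to 116 to 117 CPM in overexpression and 96.2 to 108 CPM in control libraries, with THY1 and POSTN near 0. In SCC25 overexpression libraries LUM averaged 56.4 CPM, COL1A2 21.6 CPM, DCN 15.7 CPM and COL1A1 8.76 CPM. In SCC25 control libraries LUM averaged 55.2 CPM, COL1A2 8.07 CPM, DCN 19.5 CPM and COL1A1 4.84 CPM. The 6 leukocyte markers summed to 174 to 188 CPM in A253 overexpression and 125 to 131 CPM in A253 control libraries, 254 to 259 CPM in SCC25 overexpression and 248 to 256 CPM in SCC25 control libraries, and 36.4 to 38.1 CPM in CAL27 knockdown and 42.5 to 43.4 CPM in CAL27 control libraries. CD68 made up most of these sums, with a mean of 170 CPM in A253 overexpression and 123 CPM in A253 control libraries, followed by CD14 with 7.42 CPM in A253 overexpression and 2.78 CPM in A253 control libraries, while PTPRC and CD3E were at or near 0 throughout. The 4 endothelial markers summed to 1.84 to 2.85 CPM in A253 overexpression and 1.84 to 2.44 CPM in A253 control libraries, 9.52 to 9.72 CPM in SCC25 overexpression and 6.83 to 8.03 CPM in SCC25 control libraries, and 4.11 to 6.05 CPM in CAL27 knockdown and 6.51 to 7.52 CPM in CAL27 control libraries, where CDH5 averaged 3.11 CPM with knockdown and 5.36 CPM in controls. The part of these marker shifts in the results on the pathway genes was not tested.

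The upstream sequences of PMEPA1 and TGFB2 are shown because both changed in more than 1 line, in calls that held in every setting that was run. A short ETS or SMAD sequence also falls in each window shown. They are the 250 bases before an annotated start, read 5′ to 3′ on the gene's strand, from RefSeq on GRCh38.p14. Capitals mark the ETS sequence CCGGAAG and the SMAD sequence CAGACA on either strand, so that the reverse complements CTTCCGG and TGTCTG are also in capitals.
PMEPA1, chr20:57710578-57710827, minus strand: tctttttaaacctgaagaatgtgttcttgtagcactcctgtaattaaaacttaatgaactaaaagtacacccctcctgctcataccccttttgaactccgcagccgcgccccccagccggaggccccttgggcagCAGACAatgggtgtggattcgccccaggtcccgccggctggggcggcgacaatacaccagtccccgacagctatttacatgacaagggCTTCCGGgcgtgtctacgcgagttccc
PMEPA1, chr20:57690687-57690936, minus strand: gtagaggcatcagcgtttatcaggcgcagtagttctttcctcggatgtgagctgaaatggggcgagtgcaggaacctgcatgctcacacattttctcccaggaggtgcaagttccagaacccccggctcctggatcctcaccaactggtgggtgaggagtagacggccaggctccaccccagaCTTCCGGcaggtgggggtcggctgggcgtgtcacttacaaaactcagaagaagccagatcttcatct
TGFB2, chr1:218345086-218345335, plus strand: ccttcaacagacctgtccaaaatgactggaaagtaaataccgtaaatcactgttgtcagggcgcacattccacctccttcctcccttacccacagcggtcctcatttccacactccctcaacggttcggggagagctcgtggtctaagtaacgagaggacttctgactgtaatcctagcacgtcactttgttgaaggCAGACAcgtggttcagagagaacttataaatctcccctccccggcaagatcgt
In the first PMEPA1 window CAGACA lay 115 bases and CCGGAAG 27 bases before the start, and in the second CCGGAAG lay 67 bases before it. CAGACA lay 53 bases before the TGFB2 start, and CCGGAAG was absent from that window. PMEPA1 has 4 windows, of which only those with CCGGAAG are shown. The others held neither sequence. Over windows of 300 bases, 250 before and 50 after the start, CCGGAAG was found in 3 of the 27 windows of the 10 genes, in PMEPA1 and TGFBR1, against 10.3% of all 35116 windows. CAGACA was found in 6 of the 27 windows, of 5 genes, against 16.9% of all windows. The shorter GGAA and GTCT stood in 95.5% and 84.0% of all windows, and the palindrome GTCTAGAC in 0.202% and in none of the 27. A match describes these letters and shows no binding.

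PMEPA1 followed EHF in all 3 lines. It was the member that rose in A253, it rose in SCC25, and it fell furthest among the 10 genes in the mean of both CAL27 hairpins. TGFB2 rose in SCC25 and fell in CAL27, and in A253 it did not pass the threshold. TGFBI and INHBA showed smaller rises in SCC25 and falls in the CAL27 mean, but INHBA went in opposite directions with the 2 hairpins. A change in a bulk library cannot tell fewer expressing cells from less RNA per cell.

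In A253, 4 of the 10 genes passed the adjusted threshold of 0.05, 1 higher and 3 lower, where 7.97% of the 14503 genes tested passed, 5.03% higher and 2.94% lower. In SCC25, 7 passed, 6 higher and 1 lower, where 23.9% of 14120 genes passed, 12.2% higher and 11.6% lower. With knockdown in CAL27, taken as the mean of both hairpins, 5 passed and all 5 were lower, where 18.8% of 13629 genes passed, 9.88% higher and 8.91% lower. No member was called higher in that CAL27 comparison by edgeR or by DESeq2, and 0 had a higher level at an unadjusted p under 0.05. The median log2 fold change of the 10 genes was -0.14 in A253, 0.23 in SCC25 and -0.24 in CAL27, beside medians of all tested genes of -0.00345, 0.00258 and 0.00252. As the 10 genes were chosen with earlier results of these data known, these counts and medians describe them and test no excess over all genes.

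**Figure D1:**
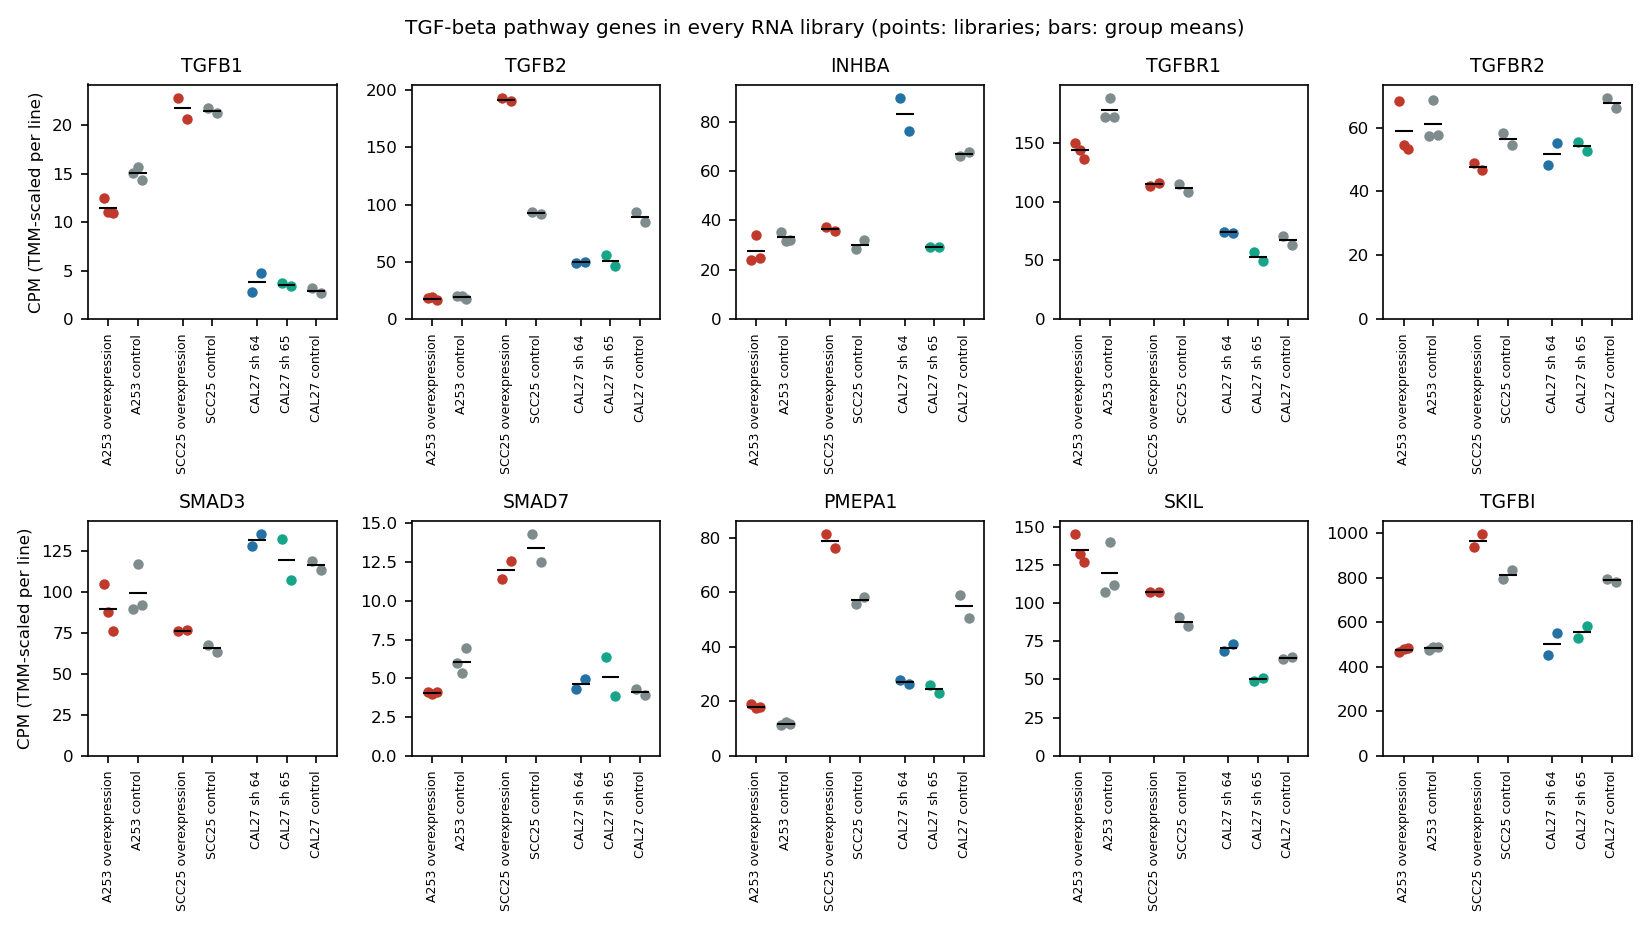
CPM (TMM-scaled within each line, axis from 0) of the 10 genes in each of the 16 libraries; points are libraries and bars are group means, with EHF overexpression left of control in A253 and SCC25, and sh 64 and sh 65 left of control in CAL27. PMEPA1 libraries separate by group in all 3 lines, TGFB2 separates in SCC25 and CAL27, and INHBA lies above control with sh 64 and below control with sh 65.

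TGFB2 was the ligand with the largest fold change in SCC25 and in the CAL27 mean. It had 193 and 190 CPM in SCC25 overexpression libraries, against 93.9 and 92.2 CPM in SCC25 controls. The pairs stood far apart, and the level was 2.06-fold higher with EHF (log2 fold change 1.04, SE 0.051, edgeR adjusted p = 6.15e-14). In CAL27 it had 49.5 and 49.8 CPM with sh 64 and 56.3 and 46.1 CPM with sh 65, against 93.9 and 84.4 CPM in controls. Every knockdown library lay below both controls, and the mean level was 1.76-fold lower (log2 fold change -0.81, SE 0.083, edgeR adjusted p = 2.31e-06). Its fall with sh 64 (-0.84) and with sh 65 (-0.79) differed by 0.05, with a 95% interval of -0.17 to 0.27. A253 libraries held 18.2, 19.3 and 16.5 CPM with overexpression and 20.5, 20.2 and 18 CPM in controls. These groups overlapped, and the log2 fold change of -0.12 had a 95% interval of -0.32 to 0.07 (edgeR adjusted p = 0.537).

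TGFB1, the ligand most used as the reference for the family, passed the threshold in A253 and in neither of the other lines. It had 12.5, 11 and 10.9 CPM in A253 overexpression libraries, against 15.1, 15.7 and 14.3 CPM in A253 controls. The groups did not overlap, and TGFB1 fell by 0.39 on the log2 scale (SE 0.100, edgeR adjusted p = 0.02). That call ended with DESeq2 (adjusted p = 0.103), without control replicate 1 or 2 (edgeR adjusted p = 0.0869 and 0.0724), and without overexpression replicate 2 or 3 (edgeR adjusted p = 0.0772 and 0.0859). SCC25 libraries had 22.8 and 20.6 CPM with overexpression and 21.7 and 21.2 CPM in controls, with a log2 fold change of 0.01. In CAL27 the gene was low: 28 to 53 counts stood behind 2.68 to 4.81 CPM in the 6 libraries, and the interval of the mean log2 fold change, -0.20 to 0.84, was wide.

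INHBA had 89.6 and 76.1 CPM with sh 64 and 29.3 and 29.3 CPM with sh 65, against 66.0 and 67.5 CPM in CAL27 controls. The hairpins thus stood on opposite sides of the controls, and none of the 3 groups overlapped another. With sh 65 INHBA fell by 1.19 (SE 0.101, edgeR adjusted p = 3.03e-07), and with sh 64 it rose by 0.32 (SE 0.091, edgeR adjusted p = 0.0226). The rise with sh 64 did not pass with DESeq2 (adjusted p = 0.105), without sh 64 replicate 1 (log2 fold change 0.19, edgeR adjusted p = 0.303), or without control replicate 1 or 2 (edgeR adjusted p = 0.175 and 0.133). The mean over hairpins, -0.43 (edgeR adjusted p = 0.00108), describes neither hairpin; with both hairpins as 1 group of 4 libraries it did not pass (edgeR adjusted p = 0.852). In SCC25 INHBA had 37.5 and 35.7 CPM with overexpression and 28.6 and 31.9 CPM in controls, a rise of 0.27 (edgeR adjusted p = 0.0167) that did not pass with DESeq2 (adjusted p = 0.179) or without control replicate 1 or overexpression replicate 1 (edgeR adjusted p = 0.127 and 0.11). In A253 it had 23.9, 34.3 and 24.9 CPM with overexpression and 35.4, 31.8 and 32.2 CPM in controls. Overexpression replicate 2 lay among the controls, and without it the gene passed as lower (log2 fold change -0.45, edgeR adjusted p = 0.00584), against -0.25 (edgeR adjusted p = 0.354) with all libraries. The antisense gene INHBA-AS1 held few reads (A253 libraries 24 to 45 counts, SCC25 libraries 8 to 19 counts, CAL27 libraries 17 to 73 counts), and as the strand setting of the counting is not given in the sources used here, reads of the overlapping pair cannot be told apart.

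Of the receptors, TGFBR1 passed in A253 and TGFBR2 in SCC25 and the CAL27 mean, all 3 as lower. TGFBR1 had 150, 144 and 136 CPM in A253 overexpression libraries, against 172, 188 and 172 CPM in A253 controls. All overexpression libraries lay below all controls, and TGFBR1 fell by 0.31 (SE 0.063, edgeR adjusted p = 0.00501). It had 113 and 116 CPM in SCC25 overexpression libraries and 115 and 108 CPM in SCC25 controls, with a log2 fold change of 0.04 and a 95% interval of -0.07 to 0.16. In CAL27 it had 74.3 and 73.5 CPM with sh 64 and 57.0 and 49.5 CPM with sh 65, against 70.5 and 63.5 CPM in controls. With sh 65 it fell by 0.32 (edgeR adjusted p = 0.0279). This call ended with DESeq2 (adjusted p = 0.0862), without sh 65 replicate 2 (log2 fold change -0.23, edgeR adjusted p = 0.179) and without control replicate 1 or 2 (edgeR adjusted p = 0.269 and 0.0564). With sh 64 the log2 fold change was 0.15 (edgeR adjusted p = 0.307).

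TGFBR2 had 48.4 and 55.2 CPM with sh 64 and 55.6 and 52.7 CPM with sh 65, against 69.3 and 66.2 CPM in CAL27 controls. All 4 knockdown libraries lay below both controls, and the mean fell by 0.36 (SE 0.079, edgeR adjusted p = 0.00384). Without control replicate 1 that call ended (edgeR adjusted p = 0.0784). The falls with sh 64 (-0.39, edgeR adjusted p = 0.00724) and sh 65 (-0.32, edgeR adjusted p = 0.0254) each ended in some settings. For sh 64 these were the fits without sh 64 replicate 1 or control replicate 1 (edgeR adjusted p = 0.129 and 0.0841). For sh 65 they were DESeq2 (adjusted p = 0.0956) and the edgeR fits without sh 65 replicate 2, control replicate 1 or control replicate 2 (adjusted p = 0.0847, 0.196 and 0.106). TGFBR2 also fell in SCC25, with 48.9 and 46.6 CPM in overexpression and 58.2 and 54.6 CPM in control libraries (log2 fold change -0.25, edgeR adjusted p = 0.0085). It did not pass there with DESeq2 (adjusted p = 0.129) or without overexpression replicate 2 (edgeR adjusted p = 0.136). A253 libraries overlapped, at 68.4, 54.6 and 53.3 CPM with overexpression and 57.3, 68.7 and 57.7 CPM in controls.

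Of the SMADs, SMAD7 fell in A253, where it had 4.13, 4.01 and 4.11 CPM in overexpression libraries, against 5.98, 5.34 and 6.94 CPM in controls. The groups did not overlap, but only 56 to 104 counts stood behind these values, and the call (log2 fold change -0.56, SE 0.148, edgeR adjusted p = 0.0254) was fragile. It ended with DESeq2 (adjusted p = 0.142), without control replicate 1 or 3 (edgeR adjusted p = 0.0916 and 0.105) and without overexpression replicate 1, 2 or 3 (edgeR adjusted p = 0.056, 0.079 and 0.0745). SMAD7 had 11.4 and 12.6 CPM in SCC25 overexpression and 14.3 and 12.5 CPM in SCC25 control libraries. It had 3.87 to 6.37 CPM in CAL27 knockdown and 3.94 to 4.31 CPM in CAL27 control libraries. Neither of these comparisons passed.

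SMAD3 rose in SCC25, with 76.2 and 76.4 CPM in overexpression and 67.8 and 63.4 CPM in control libraries (log2 fold change 0.22, SE 0.060, edgeR adjusted p = 0.00877). The groups did not overlap, yet the rise did not pass with DESeq2 (adjusted p = 0.126) or without control replicate 2, overexpression replicate 1 or overexpression replicate 2 (edgeR adjusted p = 0.0686, 0.06 and 0.0932). In A253 SMAD3 had 105, 87.7 and 75.9 CPM with overexpression and 89.6, 117 and 91.9 CPM in controls, a spread within each group larger than the gap between them. In CAL27 it had 128 and 135 CPM with sh 64, 132 and 107 CPM with sh 65, and 119 and 113 CPM in controls, and did not pass.

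**Figure D2:**
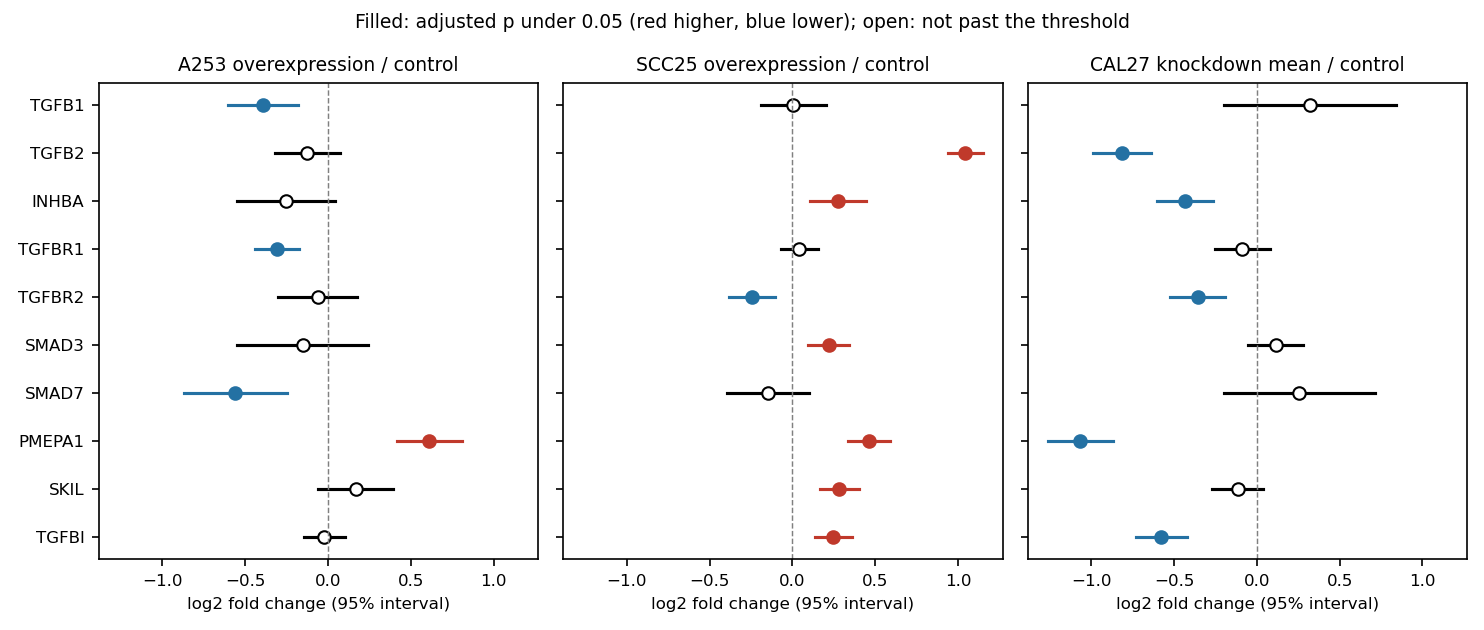
Log2 fold changes of the 10 genes, with 95% intervals, for EHF overexpression over control in A253 and SCC25 and for the mean of both knockdown hairpins over control in CAL27; filled points passed an adjusted p of 0.05 (red higher, blue lower). PMEPA1 is at 0.61, 0.46 and -1.07 from left to right, and TGFB2 at -0.12, 1.04 and -0.81.

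PMEPA1, a membrane protein that binds receptor-regulated SMADs and is itself a TGF-beta target, had 19.0, 17.4 and 17.8 CPM in A253 overexpression libraries, against 11.4, 12.3 and 11.7 CPM in A253 controls. It was 1.53-fold higher (log2 fold change 0.61, SE 0.093, edgeR adjusted p = 3.83e-04). In SCC25 it had 81.3 and 76.3 CPM with overexpression and 55.9 and 58.3 CPM in controls, 1.38-fold higher (log2 fold change 0.46, SE 0.061, edgeR adjusted p = 3.82e-06). In CAL27 it had 28.0 and 26.5 CPM with sh 64 and 26.1 and 23.2 CPM with sh 65, against 59.2 and 50.6 CPM in controls, 2.09-fold lower as a mean (log2 fold change -1.07, SE 0.093, edgeR adjusted p = 4.11e-07). No library overlapped between groups in any line, and each of these calls held under every alternative that was run, leaving out each library included. Both hairpins gave the fall, by 0.99 with sh 64 and by 1.14 with sh 65, and their difference of -0.15 had a 95% interval of -0.40 to 0.11.

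SKIL rose in SCC25, with 107 and 107 CPM in overexpression and 90.9 and 84.7 CPM in control libraries (log2 fold change 0.28, SE 0.057, edgeR adjusted p = 6.38e-04). In CAL27 it had 68.4 and 73.2 CPM with sh 64 and 49.0 and 51.0 CPM with sh 65, against 63.7 and 64.9 CPM in controls. As with INHBA the hairpins lay on either side of the controls. The fall of 0.37 with sh 65 passed (edgeR adjusted p = 0.00853) but ended without control replicate 1 or 2 (edgeR adjusted p = 0.0621 and 0.103). The log2 fold change of 0.13 with sh 64 did not pass (edgeR adjusted p = 0.324). In A253 SKIL had 145, 132 and 127 CPM with overexpression and 107, 140 and 112 CPM in controls. Control replicate 2 lay among the overexpression libraries, and without it the gene passed as higher (log2 fold change 0.30, edgeR adjusted p = 0.0171), against 0.17 (edgeR adjusted p = 0.435) with all libraries.

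TGFBI, a secreted matrix protein named for its induction by TGF-beta, had 454 and 550 CPM with sh 64 and 529 and 583 CPM with sh 65, against 796 and 779 CPM in CAL27 controls. All 4 knockdown libraries lay below the controls, and the mean was 1.49-fold lower (log2 fold change -0.58, SE 0.073, edgeR adjusted p = 3.11e-05). It had 936 and 995 CPM in SCC25 overexpression and 794 and 834 CPM in SCC25 control libraries, a rise of 0.25 (SE 0.054, edgeR adjusted p = 0.00143) that did not pass without overexpression replicate 2 (edgeR adjusted p = 0.106). In A253 it had 465, 478 and 486 CPM with overexpression and 476, 489 and 487 CPM in controls. That log2 fold change was -0.02, with a 95% interval of -0.15 to 0.10.

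The hairpins were compared directly in the same fit. Between sh 65 and sh 64, 3 of the 10 genes passed, all lower with sh 65, where 5.34% of 13629 genes passed, 2.21% higher and 3.13% lower. INHBA was 2.85-fold lower with sh 65 than with sh 64 (log2 difference -1.51, SE 0.102, edgeR adjusted p = 2.44e-08). SKIL was lower by 0.50 on the log2 scale (edgeR adjusted p = 0.00226) and TGFBR1 by 0.47 (edgeR adjusted p = 0.00636). The TGFBR1 difference ended without sh 64 replicate 1 (edgeR adjusted p = 0.0699). Against control, 5 genes passed with sh 64, INHBA higher and 4 lower, where 15.7% of genes passed, 8.76% higher and 6.89% lower. With sh 65, 7 passed, all lower, where 14.6% of genes passed, 7.62% higher and 7.01% lower. These 2 comparisons share their control libraries. The names sh 64 and sh 65 are those of the count table, and with the names of the TPM table every direction between the hairpins would turn.

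**Figure D3:**
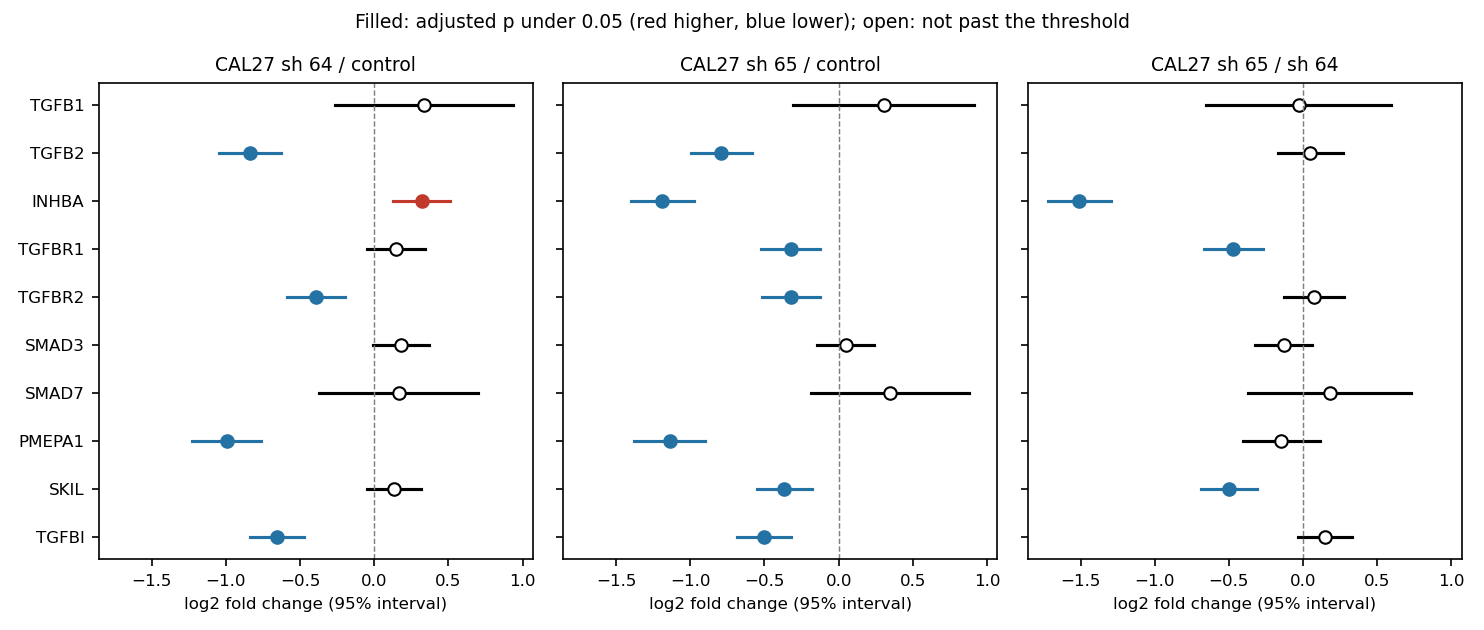
Log2 fold changes of the 10 genes in CAL27, with 95% intervals, for sh 64 over control, sh 65 over control and sh 65 over sh 64; filled points passed an adjusted p of 0.05 (red higher, blue lower). PMEPA1, TGFB2, TGFBI and TGFBR2 are lower with each hairpin, and INHBA is at 0.32 with sh 64 and at -1.19 with sh 65.

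The effects of changing EHF were compared between lines in 1 joint fit of the 16 libraries. EHF itself rose less in SCC25 than in A253, with a log2 difference of -2.03 (edgeR adjusted p = 3.46e-13). The part of this unequal rise in the differences that follow was not tested. The overexpression effect on TGFB2 was larger in SCC25 than in A253 by 1.17 on the log2 scale (SE 0.118, edgeR adjusted p = 2.34e-07). TGFBR1 fell in A253 (-0.31) and changed little in SCC25 (0.04), so its signed effect was higher in SCC25 by 0.35 (edgeR adjusted p = 0.0346). That call ended without A253 control replicate 2 or A253 overexpression replicate 3 (edgeR adjusted p = 0.0633 and 0.0968). It also ended without SCC25 control replicate 2, SCC25 overexpression replicate 1 or SCC25 overexpression replicate 2, at differences of 0.31, 0.36 and 0.33. TGFB2 and TGFBR1 were 2 of the 10 genes, both with a positive difference, where 4.69% of 15844 genes passed, 2.15% higher and 2.54% lower. INHBA, whose difference was 0.52 (edgeR adjusted p = 0.0984), passed without A253 overexpression replicate 2 (0.72, edgeR adjusted p = 0.00154) and with no filter on low counts (edgeR adjusted p = 0.0376). The PMEPA1 effects in SCC25 and A253 differed by -0.15, with a 95% interval of -0.40 to 0.10.

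The knockdown effect in CAL27 was set against each overexpression effect in the same way. EHF was lowered in CAL27 and raised in the other lines, so a gene that followed EHF alike in every line also differs here. EHF itself differed by -4.05 against A253 and by -2.02 against SCC25. These differences thus cannot tell the opposite treatments from a difference between lines. Against A253 the knockdown effect was lower for PMEPA1 (difference -1.69, edgeR adjusted p = 2.31e-11), TGFB2 (-0.70, edgeR adjusted p = 5.53e-05) and TGFBI (-0.57, edgeR adjusted p = 5.68e-05). It was higher for SMAD7 (0.80, edgeR adjusted p = 0.024) and TGFB1 (0.70, edgeR adjusted p = 0.0338). These were 5 of the 10 genes, where 14.6% of genes passed, 6.83% higher and 7.81% lower. The SMAD7 call ended without A253 control replicate 3, sh 65 replicate 1 or CAL27 control replicate 2 (edgeR adjusted p from 0.0567 to 0.147), and the TGFB1 call ended without any 1 of 7 libraries, A253 control replicate 1, A253 overexpression replicates 2 and 3, sh 64 replicate 2, sh 65 replicate 1 and CAL27 control replicates 1 and 2 (edgeR adjusted p from 0.05 to 0.294). SKIL and TGFBR2 did not pass (edgeR adjusted p = 0.0944 and 0.113) but did with no filter on low counts (edgeR adjusted p = 0.0361 and 0.0495), without A253 control replicate 2 (edgeR adjusted p = 0.00438 and 0.0404) and, for TGFBR2, without A253 overexpression replicate 3 (edgeR adjusted p = 0.0467).

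Against SCC25 the knockdown effect was lower for TGFB2 (difference -1.87, edgeR adjusted p = 1.64e-12), PMEPA1 (-1.54, edgeR adjusted p = 1.68e-10), TGFBI (-0.84, edgeR adjusted p = 1.23e-06), INHBA (-0.72, edgeR adjusted p = 0.0101) and SKIL (-0.41, edgeR adjusted p = 0.0428). These were 5 of the 10 genes, all lower, where 10.2% of genes passed, 5.09% higher and 5.12% lower. INHBA ended without SCC25 control replicate 1 or CAL27 control replicate 2 (edgeR adjusted p = 0.0562 and 0.0542). SKIL ended with library totals as the only scaling (edgeR adjusted p = 0.0786), without A253 overexpression replicate 2, SCC25 control replicate 2, either SCC25 overexpression library, sh 64 replicate 1, either sh 65 library or either CAL27 control (edgeR adjusted p from 0.0544 to 0.169).

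Levels between genes can be compared only per length, so TPM were computed for every library with the gene lengths implied by the deposited A253 values. On this scale TGFBI was the most abundant of the 10 genes in every library, from 297 to 698 TPM. SMAD7 ran from 2.05 to 8.31 TPM, TGFB1 from 2.32 to 20.3 TPM, PMEPA1 from 4.13 to 28.8 TPM and TGFB2 from 5.32 to 63.5 TPM. TGFBR2 had the smallest ratio of highest to lowest level among the 10 genes, at 18.9 to 30.6 TPM.

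Within A253 controls the order below TGFBI was TGFBR1, at 51.6 to 60.8 TPM, then SKIL, INHBA, SMAD3 and TGFBR2, which overlapped between 23.9 and 40.4 TPM. TGFB1 followed at 12.6 to 15 TPM, TGFB2 at 5.89 to 7.11 TPM, PMEPA1 at 4.13 to 4.66 TPM and SMAD7 at 3.25 to 3.92 TPM. In SCC25 controls TGFBR1, at 31.7 to 35.7 TPM, and TGFB2, at 29.4 to 31.6 TPM, stood next to TGFBI, the remaining genes except SMAD7 lay between 18.2 and 27.9 TPM with overlaps, and SMAD7 had 6.9 and 8.31 TPM. In CAL27 controls INHBA, at 59.1 to 59.3 TPM, stood next to TGFBI, then SMAD3 at 32.5 to 35.1 TPM, TGFB2 at 27.0 to 30.8 TPM and TGFBR2 at 26.8 to 28.8 TPM, the last pair overlapping. TGFBR1, PMEPA1 and SKIL lay between 17 and 21.3 TPM, and TGFB1, at 2.32 to 2.85 TPM, overlapped SMAD7 at 2.18 to 2.45 TPM. Counts were deposited line by line, so these orders are given within a line and levels were not tested between lines.

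The balance between the TGF-beta ligands is described within each line and was not tested between lines. The ratio of TGFB2 to TGFB1 TPM averaged 0.58 (range 0.535 to 0.648) in A253 overexpression and 0.481 (0.468 to 0.502) in A253 control libraries. It averaged 3.27 (3.13 to 3.42) in SCC25 overexpression and 1.6 (1.6 to 1.61) in SCC25 control libraries. In CAL27 it was 5.11 (3.83 to 6.4) with sh 64, 5.33 (5.03 to 5.62) with sh 65 and 11.2 (10.8 to 11.7) in controls. The CAL27 ratios rest on the few TGFB1 counts given above.

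**Figure D4:**
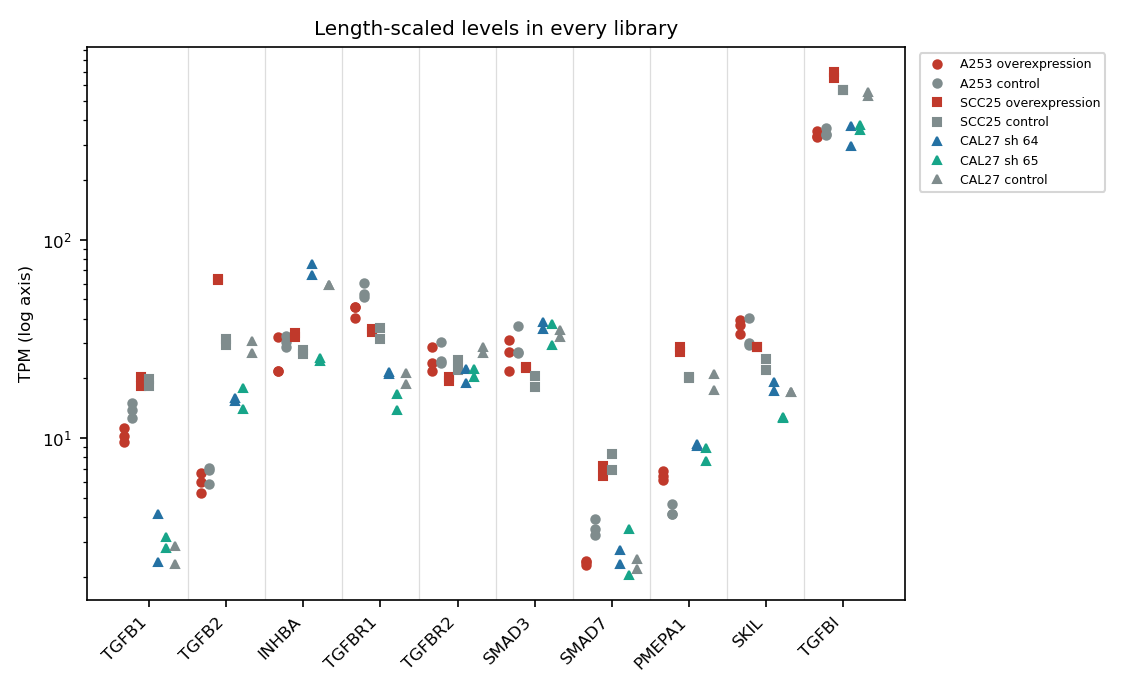
TPM (log axis) of the 10 genes in each of the 16 libraries, computed with 1 set of gene lengths; marker shape gives the line and colour the group, with altered EHF left of control within each line. TGFBI lies above all other genes, from 297 to 698 TPM, and TGFB1 and SMAD7 are the lowest genes of CAL27, with TGFB1 between 2.32 and 4.15 TPM.

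Beyond the 10 genes, 84 other genes of the pathway were listed by role, of which 76 were tested in A253, 80 in SCC25 and 75 in CAL27. In A253, 3 were higher and 8 lower, with a median log2 fold change of -0.06. In SCC25, 24 were higher and 8 lower, with a median of 0.09. In the CAL27 mean, 15 were higher and 24 lower, with a median of -0.05. The share called was 14.5% in A253, 40% in SCC25 and 52% in CAL27, beside the 7.97%, 23.9% and 18.8% of all genes given above. This list was also chosen with earlier results of these data known. The shares given here and by role below are therefore descriptive and test no excess.

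In the ligand group, which also holds latent binding proteins, activating integrins and antagonists, 3 of 13 passed in A253, 8 of 15 in SCC25 and 7 of 15 in the CAL27 mean. These shares are 23.1%, 53.3% and 46.7%, beside 7.97%, 23.9% and 18.8% of all genes. FSTL1, a secreted follistatin-like glycoprotein, rose in A253 to 312 ± 9.5 CPM, against 218 ± 4.69 CPM in controls (SD, n = 3 each; log2 fold change 0.52, edgeR adjusted p = 1.84e-05). It rose in SCC25 (0.33, edgeR adjusted p = 5.91e-05) and fell in CAL27 (-0.69, edgeR adjusted p = 3.43e-05). FST, the follistatin that binds and neutralises activin, rose in A253 (0.30, edgeR adjusted p = 0.0348) and SCC25 (0.47, edgeR adjusted p = 6.4e-04) and fell in the CAL27 mean (-0.86, edgeR adjusted p = 3.28e-07). Its A253 call ended with DESeq2 (adjusted p = 0.123), without control replicate 1 or 3 and without overexpression replicate 1 or 3 (edgeR adjusted p from 0.0672 to 0.227). Its SCC25 call ended without control replicate 2 (edgeR adjusted p = 0.182). Its CAL27 fall ended with both hairpins as 1 group (edgeR adjusted p = 0.527): the mean was 112 CPM with sh 65 (log2 fold change -1.55, edgeR adjusted p = 8.65e-09) and 294 CPM with sh 64 (-0.17, edgeR adjusted p = 0.205), against 329 CPM in controls.

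INHBB, another activin subunit, had the largest rise among the listed genes in SCC25, with 8.1 ± 0.781 CPM in overexpression and 2.68 ± 0.0571 CPM in control libraries (SD, n = 2 each; log2 fold change 1.61, edgeR adjusted p = 4.18e-07). In CAL27, and followed after its values were seen, INHBB lay on the other side of INHBA with each hairpin, at 1.22 CPM with sh 64, 5.67 CPM with sh 65 and 2.52 CPM in controls. INHBB was low there, with an average log2 CPM of 1.69, under the floor of 2 used to name other pathway genes. It fell with sh 64 (-1.10, edgeR adjusted p = 0.0337) and rose with sh 65 (1.14, edgeR adjusted p = 0.00469). The fall did not pass with DESeq2 (adjusted p = 0.2) or without any 1 of the 4 libraries (edgeR adjusted p from 0.0745 to 0.252), and the rise did not pass with DESeq2 (adjusted p = 0.0847) or without sh 65 replicate 1 (edgeR adjusted p = 0.06). LTBP1, which tethers latent TGF-beta to the matrix, fell in SCC25 (-0.28, edgeR adjusted p = 0.0015) and rose in the CAL27 mean (0.56, edgeR adjusted p = 0.00884), where it passed with sh 64 (0.71, edgeR adjusted p = 0.00495) and not with sh 65 (0.41, edgeR adjusted p = 0.107). The call of the mean ended with DESeq2 (adjusted p = 0.0743) and without control replicate 1 or 2 (edgeR adjusted p = 0.0608 and 0.14), and that of sh 64 without control replicate 2 (edgeR adjusted p = 0.0699). GDF15, a distant member of the ligand family and a stress-responsive cytokine, rose in the CAL27 mean (1.15, edgeR adjusted p = 8.87e-04), with 10.1 CPM under sh 64, 3.7 CPM under sh 65 and 2.78 CPM in controls. It passed with sh 64 (1.86, edgeR adjusted p = 1.88e-05) and not with sh 65 (0.45, edgeR adjusted p = 0.281). With both hairpins as 1 group its call ended (edgeR adjusted p = 0.183).

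Among the 8 other receptors tested in each line, 0 passed in A253, 2 in SCC25 and 0 in the CAL27 mean by edgeR. The SCC25 share of 25% is close to the 23.9% of all genes, and in A253 and CAL27 7.97% and 18.8% of all genes passed. DESeq2 also called 0 in A253 and 0 in CAL27, and 1 in each had an unadjusted edgeR p under 0.05. TGFBR3 (betaglycan), the co-receptor that presents TGFB2 to TGFBR2, fell in SCC25 to 13.1 ± 0.0456 CPM, against 24.2 ± 2.15 CPM in controls (SD, n = 2 each; log2 fold change -0.88, edgeR adjusted p = 7.57e-07). BMPR2, the type II receptor of bone morphogenetic proteins, rose there by 0.53 (edgeR adjusted p = 7.45e-06) and was named after its value was seen. No other SMAD passed by edgeR or DESeq2 among 6 tested in A253, 6 in SCC25 and 5 in CAL27. At an unadjusted edgeR p under 0.05 there were 0 in A253, 1 in SCC25 and 2 in CAL27.

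In the modulator group 1 of 13 passed in A253, 5 of 13 in SCC25 and 2 of 11 in CAL27. These shares are 7.69%, 38.5% and 18.2%, beside 7.97%, 23.9% and 18.8% of all genes. BAMBI, a decoy receptor of the pathway, fell in A253 to 6.82 ± 0.582 CPM, against 10 ± 1.43 CPM in controls (SD, n = 3 each; log2 fold change -0.54, edgeR adjusted p = 0.0175). The call ended with DESeq2 (adjusted p = 0.0576), without control replicate 1 or 3 and without overexpression replicate 1 or 3 (edgeR adjusted p from 0.0515 to 0.107).

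Among the targets in the CAL27 mean 30 of 36 passed, 12 higher and 18 lower, with a median log2 fold change of -0.28, beside 9.88% of all genes higher and 8.91% lower. Both directions were found within this list. The falls included VIM, the mesenchymal intermediate filament (-1.12, edgeR adjusted p = 0.00235), and PLAUR, the urokinase receptor (-0.84, edgeR adjusted p = 3.29e-05). VIM was low throughout, with means of 3.37 CPM in knockdown and 7.18 CPM in control libraries. With sh 64 alone VIM (-1.27) did not pass without sh 64 replicate 1 (-0.73, edgeR adjusted p = 0.182). The rises included TIMP3, an inhibitor of metalloproteinases (1.14, edgeR adjusted p = 4.93e-04), also low with means of 7.49 CPM in knockdown and 3.27 CPM in control libraries. They also included CDKN2B, the p15 inhibitor of cyclin-dependent kinases through which TGF-beta is known to halt the cell cycle (0.88, edgeR adjusted p = 3.19e-05).

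With sh 64 the largest changes of targets included a rise of CDKN1A, the p21 inhibitor (1.24, edgeR adjusted p = 7.79e-06), and a fall of COL4A1, a collagen of basement membranes (-0.83, edgeR adjusted p = 8.74e-06). With sh 65 they included a rise of ID1, an inhibitor of DNA binding best known as a target of bone morphogenetic proteins (0.89, edgeR adjusted p = 1.61e-06). The sh 65 rise of TIMP3 (0.96, edgeR adjusted p = 0.00805) ended with DESeq2 (adjusted p = 0.058) and without control replicate 1 or 2 (edgeR adjusted p = 0.0511 and 0.0543), and that of CDKN2B (0.72, edgeR adjusted p = 0.00108) without control replicate 2 (edgeR adjusted p = 0.052).

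In SCC25, 17 of 38 targets passed, 13 higher and 4 lower, a share of 44.7% beside 23.9% of all genes. TAGLN, a contractile protein, rose to 29.6 ± 0.875 CPM, against 15.7 ± 1.55 CPM in controls (SD, n = 2 each; log2 fold change 0.91, edgeR adjusted p = 1.22e-07), and COL1A1, a fibrillar collagen that is also in the fibroblast marker list, rose by 0.84 (edgeR adjusted p = 3.57e-04). In A253, 7 of 36 passed, 1 higher and 6 lower, a share of 19.4% beside 7.97% of all genes. PTHLH, parathyroid hormone-like hormone, rose (0.38, edgeR adjusted p = 0.00106), and NEDD9, an adhesion scaffold (-0.61, edgeR adjusted p = 0.0205), and COL7A1, the anchoring fibril collagen (-0.40, edgeR adjusted p = 0.0233), fell. The NEDD9 call ended with DESeq2 (adjusted p = 0.105), without control replicate 2 or 3 and without overexpression replicate 3 (edgeR adjusted p from 0.0688 to 0.099), and the COL7A1 call without control replicate 1, overexpression replicate 1 or overexpression replicate 3 (edgeR adjusted p from 0.0775 to 0.114).

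PTHLH rose in A253, in SCC25 and in the CAL27 mean, a comparison chosen after its values were seen, by 0.38 in A253, 0.79 in SCC25 (edgeR adjusted p = 9.88e-11) and 0.24 in the CAL27 mean (edgeR adjusted p = 0.0146). In CAL27 it passed with sh 64 (0.35, edgeR adjusted p = 0.00324) and not with sh 65 (0.12, edgeR adjusted p = 0.291). The CAL27 call of PTHLH ended with both hairpins as 1 group (edgeR adjusted p = 0.113) and without control replicate 1 or 2 (edgeR adjusted p = 0.27 and 0.103).

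**Figure D5:**
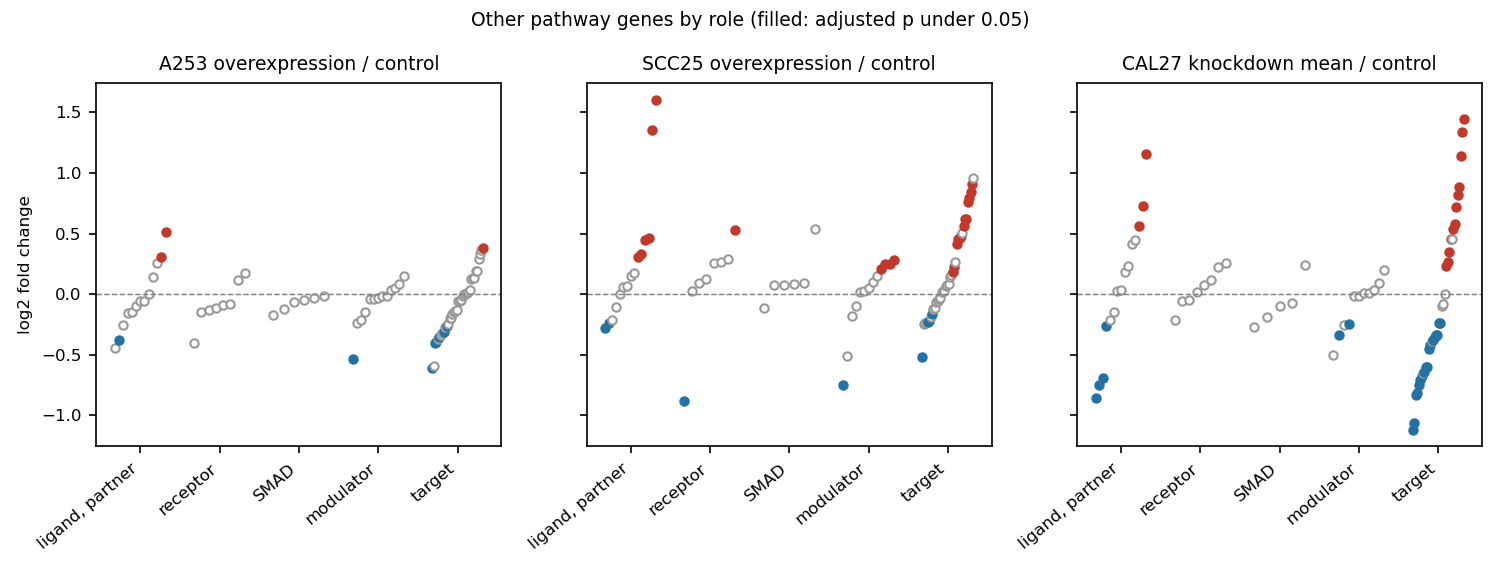
Log2 fold changes of the other tested genes of the pathway, by role, for EHF overexpression over control in A253 and SCC25 and for the mean of both knockdown hairpins over control in CAL27; each point is a gene and filled points passed an adjusted p of 0.05 (red higher, blue lower). The targets of CAL27 spread to both sides of 0, with 12 higher and 18 lower, and the SMADs hold no filled point in any line.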

How the data were processed

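RNA was extracted with Trizol and prepared with a TruSeq kit, per the labels' protocols. The authors deposited raw counts per gene symbol, 1 table per line, and TPM for A253 and CAL27; the submitters' processing notes name TopHat2 2.1.1, featureCounts 1.5.3, Bowtie 1.1.1, DESeq2 1.12.4 and hg19. The 4 columns of the SCC25 TPM table were not used. Its header is shifted by a cell, and its values appeared to be divided by gene length a second time. Of the CAL27 gene names, 696 were altered in the counts (TGFBR1 among them) and were taken by position from A253, after implied gene lengths matched within 0.01 (log2) for 18450 of 18450 genes.

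The counts were fitted per line in edgeR 4.0.16 (R 4.3.3; filterByExpr, TMM, robust quasi-likelihood) with 3 CAL27 groups, and jointly for differences between lines; the p-values are two-sided and adjusted by Benjamini-Hochberg over all genes tested. SE is the absolute log2 fold change over the root of F. TPM for all lines were computed from counts and the A253 lengths. The fits were tested on simulated data. Alternatives were DESeq2 1.42.0, upper-quartile scaling, library totals, no filter, a replicate block and each library left out. Other pathway genes were named as the 3 largest rises and 3 largest falls that passed and averaged 2 or more in log2 CPM; a gene that this rule names is not reported here. The 10 genes and the lists were chosen with earlier results of these data known. The ChIP and input libraries were not analysed here.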

Additional observations from a re-analysis of the deposited data

Results flagged for a closer look

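The overexpression effect differed between SCC25 and A253 for TGFB2, by 1.17 on the log2 scale, and for TGFBR1, by 0.35, in the joint edgeR fit. In that fit the rise of EHF itself differed by -2.03, SCC25 minus A253. The hairpins differed for INHBA (sh 65 against sh 64, log2 difference -1.51), SKIL (-0.50) and TGFBR1 (-0.47). EHF itself differed between the hairpins by -0.16, which did not pass the threshold (edgeR adjusted p = 0.23). The 95% interval of this EHF difference was -0.31 to -0.01, and EHF was lower in both sh 65 libraries than in both sh 64 libraries. The names of the hairpins differ between the deposited tables, as stated above.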

How the results depend on the processing

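No result changed its direction among called values under any alternative run. For the 10 genes, EHF and the named pathway genes, leaving out 1 library kept 1112 results on the same side of the threshold. It ended 87 calls and added 7. The other alternatives kept 697, ended 22 and added 3. The kept results include those never called, whose sign could change: TGFB1 with sh 64 ran from -0.0076 to 0.7428 over the settings. They also include differences between lines refitted without a library of the line outside the comparison. Smaller counts with a library left out come with fewer samples; the cause of the other shifts was not tested. DESeq2 called 2 of the 10 genes in A253 (4 by edgeR), 4 in SCC25 (7) and 5 in the CAL27 mean (5). It called 4 with sh 64 (5), 5 with sh 65 (7) and 3 between sh 65 and sh 64 (3). Over all genes it called 793 in A253 (1156 by edgeR), 1527 in SCC25 (3370) and 1446 in the CAL27 mean (2560). The counts over all genes were 1192 with sh 64 (2133), 1172 with sh 65 (1994) and 446 between sh 65 and sh 64 (728). With both hairpins as 1 group 1234 genes passed. The replicate numbers were not taken to pair the samples, since not every same-numbered pair of libraries deviated from its group means together. The correlations were -0.493, -0.092 and 0.526 in A253, 0 in SCC25, and 0.129 (sh 65 with sh 64), -0.04 (sh 64 with control) and 0.365 (sh 65 with control) in CAL27. With the replicate numbers of the TPM table the CAL27 values 0.129 and -0.04 would be -0.129 and 0.04. A replicate block would then also pair other CAL27 libraries. Differently numbered A253 libraries were more strongly related: control replicate 2 gave 0.637 with overexpression replicate 1 and -0.69 with overexpression replicate 3. Control replicate 2 and overexpression replicate 1 also had the highest TGFBR2, SMAD3 and SKIL levels of their A253 groups. The source of this shared variation was not tested. With a replicate block 1073 genes passed in A253, 3521 in SCC25, 3317 in the CAL27 mean (2560 without the block) and 1260 between the hairpins (728 without it), and the calls of the 10 genes had the same counts; of the named pathway genes FST in A253 did not pass (adjusted p = 0.0616).

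Leaving out each library in turn gave these ranges. For all genes they were 658 to 1036 in A253 (lowest without control replicate 1), 2124 to 3639 in SCC25 (lowest without overexpression replicate 2, and 2228 without overexpression replicate 1), 937 to 3038 in the CAL27 mean (lowest without control replicate 1, and 1037 without control replicate 2), 866 to 2876 with sh 64 (lowest without control replicate 1; 940 without the other control and 899 without sh 64 replicate 1), 879 to 2026 with sh 65 (lowest without control replicate 1, and 937 without control replicate 2) and 263 to 1048 between the hairpins (lowest without sh 64 replicate 1, and 419 without sh 64 replicate 2). They were 258 to 825 for SCC25 minus A253 (258 and 467 without SCC25 control replicates 2 and 1, 299 and 347 without overexpression replicates 1 and 2), 1486 to 2280 for CAL27 minus A253 (lowest without CAL27 control replicate 2) and 994 to 1726 for CAL27 minus SCC25 (lowest without SCC25 control replicate 2; 1019 and 1073 without SCC25 overexpression replicates 1 and 2, 1032 without CAL27 control replicate 1). For the 10 genes the ranges were 2 to 4 in A253 (2 without control replicate 1 or overexpression replicate 3), 4 to 6 in SCC25 (4 without overexpression replicate 2), 4 to 5 in the CAL27 mean, 3 to 5 with sh 64 (3 without sh 64 replicate 1 or control replicate 1), 4 to 7 with sh 65 (4 without either control), 2 to 3 between the hairpins, 1 to 3 for SCC25 minus A253, 3 to 7 for CAL27 minus A253 and 3 to 5 for CAL27 minus SCC25. With library totals as the only scaling the split for CAL27 minus SCC25 was 1023 higher and 675 lower, against 806 and 811 with TMM. SMAD7 in A253 and TGFB1 in CAL27 are limited by their low counts.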
